A study of Mus musculus with 6 samples.

Results

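The genes described here are those of pleiotrophin (Ptn) and midkine (Mdk), the growth factors of one small family, and of 6 cell-surface proteins that bind them: the syndecans Sdc1, Sdc2, Sdc3 and Sdc4, the receptor tyrosine phosphatase Ptprz1 and the endocytic receptor Lrp1. They were taken as every probe set of the array that the platform annotation ties to exactly 1 gene symbol, that symbol being 1 of these 8. This gave 22 probe sets of 45037, and 8 gene symbols of 18193. The genes were chosen with the difference between the Et1 and control arrays in view, so that difference is given below as a description. No p-value is given for them, and counts of their calls stand only beside those of all probe sets.

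Messenger RNA was measured on Affymetrix Mouse430_2 arrays in primary dermal fibroblasts, which grew out of pieces of newborn skin. Cultures of the Et1 group received 100 nM synthetic endothelin 1 (Et1), a vasoactive peptide, for 24 hours, and control cultures received no addition. Each group had 3 arrays, which the labels call biological replicates, all of B6 pups of mixed sex and 0 to 2 days of age, at passage 6. Cells had been divided into an Et1 and a control culture about a passage earlier. Neither the animals behind each culture nor any pooling of pups is named, so the spread between arrays may be partly technical.

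Pleiotrophin and midkine are secreted, heparin-binding proteins, known for promoting neurite outgrowth and cell migration, and they are made by mesenchymal cells during development. They attach to the heparan sulfate and chondroitin sulfate chains of cell-surface proteoglycans. Binding to Ptprz1 is known to inactivate its phosphatase, while syndecans hold the factors at the membrane and Lrp1 takes midkine into the cell.

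RefSeq's table of start sites (build GRCm38.p6) held 6 of the 8 genes. The bases before the start are shown for the 3 genes with the largest differences among probe sets whose Et1 and control signals did not overlap, Ptn at chr6:36810180-36810429 on the minus strand, Ptprz1 at chr6:22875252-22875501 on the plus strand and Sdc4 at chr2:164443189-164443438 on the minus strand. Each line gives 250 bases, 5′ to 3′, ending just before the start, and capitals mark matches on either strand to the GC box GGGCGG, the CCAAT box CCAAT and the TATA box TATAAN.
Ptn: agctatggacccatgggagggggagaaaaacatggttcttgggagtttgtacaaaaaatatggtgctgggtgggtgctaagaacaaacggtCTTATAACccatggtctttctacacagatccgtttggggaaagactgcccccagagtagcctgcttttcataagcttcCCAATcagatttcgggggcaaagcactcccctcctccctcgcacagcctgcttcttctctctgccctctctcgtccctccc
Ptprz1: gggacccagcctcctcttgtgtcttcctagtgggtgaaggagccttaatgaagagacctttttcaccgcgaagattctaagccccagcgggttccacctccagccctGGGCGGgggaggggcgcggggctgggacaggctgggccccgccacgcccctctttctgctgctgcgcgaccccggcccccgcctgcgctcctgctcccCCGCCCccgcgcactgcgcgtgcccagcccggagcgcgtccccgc
Sdc4: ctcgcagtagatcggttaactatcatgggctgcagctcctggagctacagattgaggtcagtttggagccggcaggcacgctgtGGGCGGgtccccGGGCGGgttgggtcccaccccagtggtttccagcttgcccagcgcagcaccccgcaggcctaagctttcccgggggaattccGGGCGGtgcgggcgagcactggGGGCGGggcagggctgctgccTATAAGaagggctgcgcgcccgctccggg

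The Ptn window held 0 GC boxes, 1 CCAAT box and 2 matches to the TATA box letters, 1 on each strand and overlapping each other. The Ptprz1 window held 2 GC boxes, and that of Sdc4 held 4 GC boxes and 1 TATA box, 24 bases before the start. Guanine and cytosine made up 52.0% of the Ptn window, 71.6% of that of Ptprz1 and 68.0% of that of Sdc4, beside a median of 52.4% over 32851 windows of the same length. Of those windows 32.7% held a GC box, 33.8% a CCAAT box and 22.7% a TATA box. The AP-1 letters TGANTCA, the ATF4 letters TGATGNAA and the CArG box of serum response factor were also searched. They had 0 matches in the windows of these 3 genes and stood in 6.75%, 3.45% and 1.47% of all windows. These are matches of letters and not measured binding.

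All signals below are MAS5 intensities scaled to a common 2% trimmed mean of 139. On these arrays a signal depends on the probes, so levels are compared between arrays for 1 probe set and not between genes. A probe set was analysed further where its mean over the 6 arrays reached 41.0, the median of all probe sets. This held for 20 of the 22, and 1 probe set each of Sdc2 and Ptprz1 lay below. As these are mixed RNA of whole cultures, fewer cells of a type and less RNA per cell cannot be told apart.

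The cultures carried fibroblast RNA, with Col1a1 and Col1a2, the chains of type I collagen, at 1159 to 5633 and 3055 to 5191 in Et1 arrays and at 1897 to 6728 and 4418 to 6878 in control arrays. Of 9 fibroblast markers on the array 8 passed the filter, all but Lum, and their summed signal was 9042 to 17944 in Et1 and 14372 to 27698.5 in control arrays, each of the 9 having the lower mean in Et1. For 5 smooth muscle or pericyte markers it was 879 to 1244 in Et1 and 1899 to 2566 in control arrays, and for 3 adipocyte markers 132 to 137 and 275 to 376. Each sum was carried by 1 gene, Cnn1 (calponin, 929 in Et1 and 2064 in control arrays) and Fabp4 (a fatty acid carrier, 107 and 291, the marker called by limma). Myh11 and Cidec also had lower means in Et1, Des was about level, and Rgs5, Kcnj8 and Adipoq had higher means in Et1. The part of these cell types in the results below was not tested. The summed signals of 6 keratinocyte, 6 melanocyte, 5 endothelial and 5 leukocyte markers reached at most 423 in Et1 and 442 in control arrays. A split also ran through the arrays. It cut across the groups but was not balanced between them. Poly(A) spike-in controls, probe sets for bacterial transcripts, had a mean log2 signal of 3.57 on Et1 replicate 2 and of 3.45 and 3.46 on control replicates 2 and 1, the low set. On Et1 replicates 1 and 3 it was 5.43 and 4.75, and on control replicate 3 it was 5.64, the high set. Correlations of log2 signal over the probe sets above the filter followed these sets, at 0.947 to 0.971 within a set and 0.909 to 0.939 between sets. Et1 replicate 2 correlated at 0.951 and 0.959 with control replicates 1 and 2 and at 0.924 and 0.938 with Et1 replicates 1 and 3. Fibroblast markers differed in how they ran with these sets. The log2 fold change of Col1a1, Et1 minus control, was -0.93, and it was -0.25 within the low and -0.36 within the high set. For Pdgfra the values were -0.50, -0.57 and -0.69. The 3′ over 5′ signal ratio of Gapdh, a sign of RNA integrity, was 0.677 to 0.757 in Et1 and 0.728 to 0.775 in control arrays. That of the transferrin receptor was wider, at 2.20 to 3.86 in Et1, highest on replicate 1, and 2.52 to 2.98 in control arrays.

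Pleiotrophin had the lowest signals relative to control of the 8 genes, in 2 of its 3 probe sets. Probe set 1448254_at of Ptn read 210, 158 and 93.0 on Et1 replicates 1, 2 and 3, against 1276, 844 and 512 on control replicates 1, 2 and 3. Every Et1 array lay below every control array. The means were 154 ± 58.7 in Et1 and 878 ± 383 in control arrays (SD, n = 3 each), a log2 fold change of -2.49 (SE 0.38), or 5.63 times lower in Et1.

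Probe set 1416211_a_at of Ptn, built on the same sequence record, read 30.4, 34.9 and 15.4 on Et1 replicates 1, 2 and 3, against 419, 295 and 104 on control replicates 1, 2 and 3. The groups again did not overlap, and the log2 fold change was -3.21 (SE 0.52). The Et1 signals of this probe set lay under the filter value of 41.0, where a fold is sensitive to background, and with 50 added to each signal its log2 fold change was -1.94. For 1448254_at the same addition gave -2.14.

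The third probe set of Ptn, 1443173_at, did not follow. It was built on another sequence record, and it read 148, 70.4 and 131 on Et1 replicates 1, 2 and 3, against 120, 73.0 and 101 on control replicates 1, 2 and 3. The groups overlapped, with means of 116 ± 40.8 in Et1 and 98.0 ± 23.6 in control arrays (SD, n = 3 each) and a log2 fold change of 0.21 (SE 0.31). Its log2 fold change stood 2.70 above that of 1448254_at and 3.42 above that of 1416211_a_at. Without Et1 replicate 1 it was -0.00, and within the spike-in sets it was -0.41 in the low and 0.46 in the high set, so its sign rested on the arrays chosen. Which part of the Ptn transcripts each probe set reads was not analysed here.

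Within the control arrays Ptn also varied. In 1448254_at control replicate 1 read highest and control replicate 3 lowest, and control replicate 3 stood at 0.483 of the mean of the other controls. In 1416211_a_at that ratio was 0.292, and in 1443173_at it was 1.05. Within the low spike-in set, which holds 1 Et1 and 2 control arrays, the log2 fold change of 1448254_at was -2.71, and within the high set, with 2 Et1 arrays and 1 control array, it was -1.87. For 1416211_a_at the values were -3.33 and -2.27.

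Midkine, the close relative of pleiotrophin, had 1 probe set, 1416006_at, and it overlapped between the groups. It read 192, 150 and 245 on Et1 replicates 1, 2 and 3, against 257, 147 and 219 on control replicates 1, 2 and 3. The log2 fold change was -0.08 (SE 0.26), and it was 0.10 without Et1 replicate 2 and 0.09 without control replicate 1. The lowest signal of each group was on its replicate 2.

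**Figure D1:**
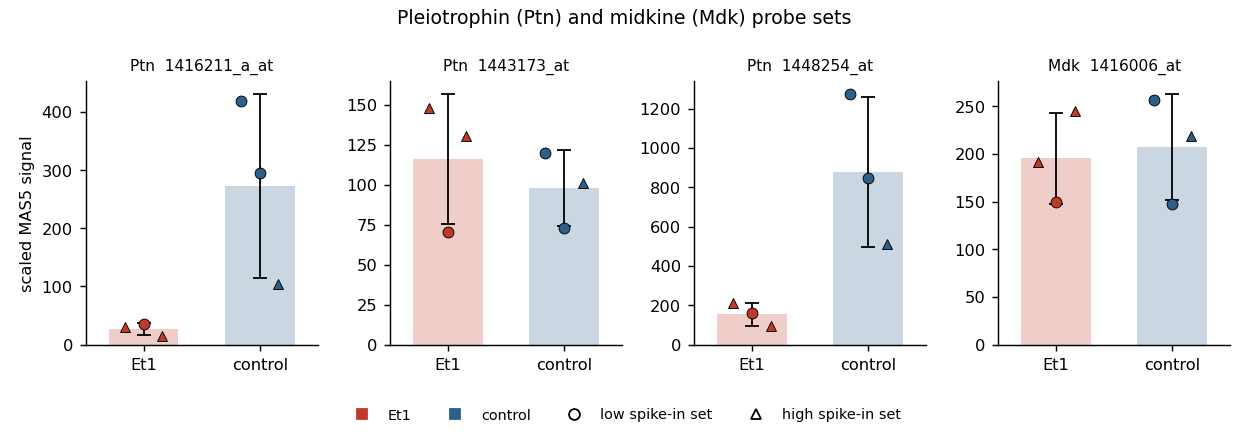
Scaled MAS5 signals of the 3 Ptn probe sets and the Mdk probe set in Et1 (red, left) and control (blue, right) arrays, each panel with its own linear axis from 0; points are arrays, with circles for the low and triangles for the high spike-in set, bars are means and whiskers 1 SD. Et1 points lie below all control points in 1416211_a_at and 1448254_at while in 1443173_at 2 Et1 points lie above and 1 below all control points, and in Mdk the groups mix.

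Ptprz1, the receptor phosphatase whose activity the factors lower, was below control in every Et1 array in both probe sets above the filter. Probe set 1427019_at of Ptprz1 read 93.3, 84.5 and 77.0 on Et1 replicates 1, 2 and 3, against 149, 182 and 165 on control replicates 1, 2 and 3. The means were 84.9 ± 8.19 in Et1 and 165 ± 16.5 in control arrays (SD, n = 3 each), a log2 fold change of -0.96 (SE 0.17). Probe set 1452284_at of Ptprz1, from the same sequence record, read 128, 99.2 and 104 on Et1 replicates 1, 2 and 3, against 217, 171 and 234 on control replicates 1, 2 and 3. Its log2 fold change was -0.90 (SE 0.19). The spread within each group was small beside the gap between them in both probe sets.

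The Ptprz1 difference had nearly the same size in both spike-in sets, at -0.96 in each for 1427019_at, and at -0.96 in the low and -1.02 in the high set for 1452284_at. After 50 was added to every signal the Ptprz1 differences were -0.67 and -0.68. The remaining probe set, 1418690_at, read 10.7 to 23.6 in Et1 and 17.0 to 24.9 in control arrays and was too dim to use. Ptprz1 is best known from glia. The summed signal of the 5 markers of Schwann cells or glia on the array was 196 to 253 in Et1 and 258 to 282 in control arrays. They did not run one way. Sox10, the glial transcription factor, averaged 73.9 in Et1 and 101.5 in control arrays, and S100b 45.9 and 80.3. Mbp, a myelin protein, averaged 78.3 in Et1 and 56.7 in control arrays, Foxd3 27.4 and 24.6, and Cdh19 4.87 and 8.11. In Sox10 and S100b every Et1 array lay below every control array. Mbp, Foxd3 and Cdh19 overlapped between the groups, and Foxd3 and Cdh19 lay below the filter. None of these markers was at 0, the deposited signals carry no detection calls, and their part in the Ptprz1 difference was not tested.

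Syndecan-4, a heparan sulfate proteoglycan of focal adhesions, also read lower in both of its probe sets, which share a sequence record. Probe set 1448793_a_at of Sdc4 read 84.3, 62.6 and 35.8 on Et1 replicates 1, 2 and 3, against 141, 114 and 112 on control replicates 1, 2 and 3. The groups did not overlap, and the log2 fold change was -1.08 (SE 0.31). Probe set 1417654_at of Sdc4 read 36.4, 87.7 and 36.6 on Et1 replicates 1, 2 and 3, against 169, 158 and 78.1 on control replicates 1, 2 and 3. Here Et1 replicate 2 lay above control replicate 3, so the groups overlapped, with a log2 fold change of -1.39 (SE 0.42). In the low set 1417654_at stood at -0.90 and in the high set at -1.10, and 1448793_a_at at -1.02 and -1.03. With 50 added before log2 they were -0.83 and -0.66.

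Syndecan-3, a neural and muscle syndecan known as a pleiotrophin receptor, gave opposite signs between its probe sets. Probe set 1436482_a_at of Sdc3 read 140, 318 and 148 on Et1 replicates 1, 2 and 3, against 537, 503 and 231 on control replicates 1, 2 and 3. Its log2 fold change was -1.08 (SE 0.40). Et1 replicate 2 lay above control replicate 3, while inside each spike-in set every Et1 array was below every control, at -0.71 in the low and -0.68 in the high set.

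Probe set 1450027_at of Sdc3 read 397, 660 and 371 on Et1 replicates 1, 2 and 3, against 859, 824 and 505 on control replicates 1, 2 and 3, a log2 fold change of -0.63 (SE 0.28). Probe set 1420853_at of Sdc3 read 304, 214 and 189 on Et1 replicates 1, 2 and 3, against 173, 204 and 160 on control replicates 1, 2 and 3. Its log2 fold change was 0.37 (SE 0.21), with overlapping groups. The 2 probe sets were designed on the same sequence record and yet differed in sign, and 1420853_at was higher in Et1 within both spike-in sets, at 0.19 and 0.58.

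**Figure D2:**
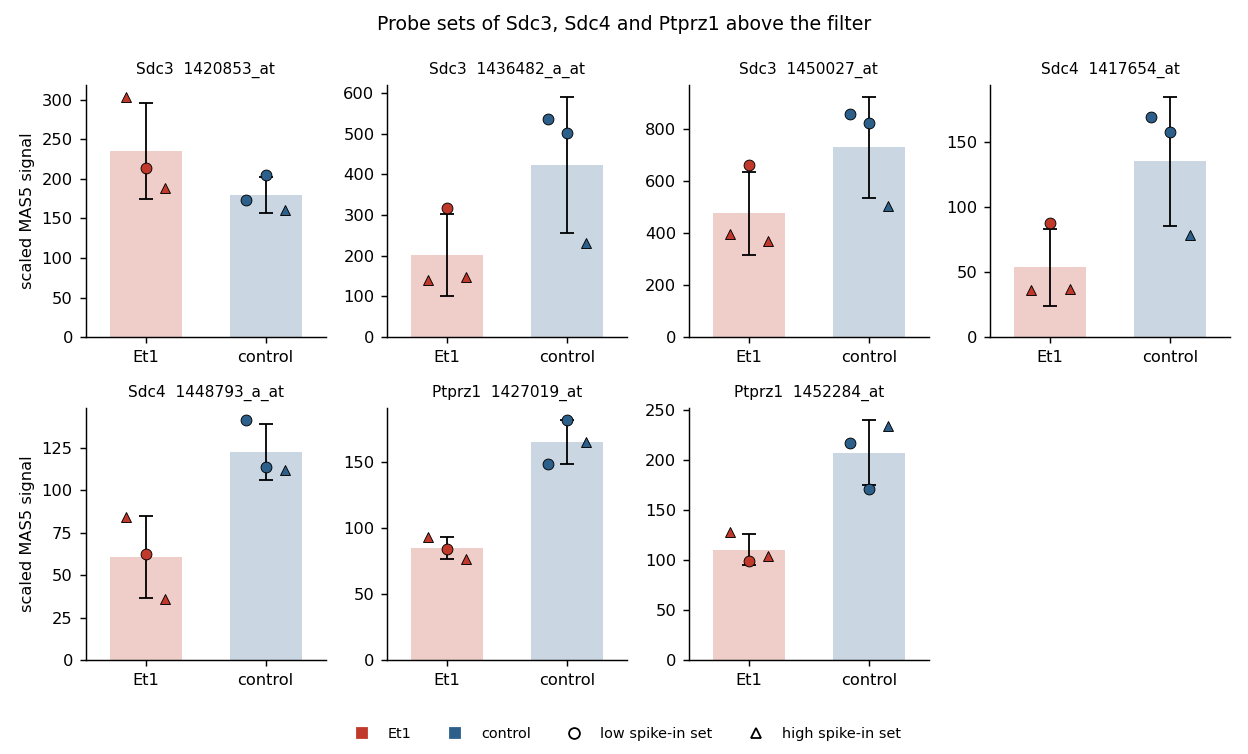
Scaled MAS5 signals of the 7 probe sets of Sdc3, Sdc4 and Ptprz1 above the filter in Et1 (red, left) and control (blue, right) arrays, each panel with its own linear axis from 0; points are arrays (circles, low spike-in set; triangles, high spike-in set), bars are means and whiskers 1 SD. In Ptprz1 the points of each group sit close together, while in Sdc3 1436482_a_at and 1450027_at and in Sdc4 1417654_at the triangles sit below the circles within each group.

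Syndecan-1, the syndecan typical of epithelia, had 4 probe sets, with log2 fold changes of -0.56 for 1415943_at, -0.43 for 1415944_at, -0.46 for 1448158_at and -0.19 for 1437279_x_at. Only 1415944_at of Sdc1 did not overlap, at 156, 168 and 117 on Et1 replicates 1, 2 and 3, against 176, 211 and 201 on control replicates 1, 2 and 3. Probe set 1448158_at of Sdc1 read 352, 506 and 250 on Et1 replicates 1, 2 and 3, against 647, 632 and 283 on control replicates 1, 2 and 3. It stood at -0.34 within the low and at 0.07 within the high spike-in set, so its lower mean was not seen in both.

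Syndecan-2, the syndecan typical of mesenchymal cells, had log2 fold changes from -0.28 to -0.20 in its 3 probe sets above the filter. Probe set 1448545_at of Sdc2 read 431, 401 and 354 on Et1 replicates 1, 2 and 3, against 403, 517 and 450 on control replicates 1, 2 and 3. The groups overlapped in each of the 3, and 1417012_at stood at 0.18 within the low and at -0.59 within the high spike-in set. The dim probe set 1431474_at read 3.17 to 25.003 in Et1 and 11.9 to 19.3 in control arrays.

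Lrp1, a large scavenger receptor of the low-density lipoprotein receptor family, had 2 overlapping probe sets. Probe set 1448655_at of Lrp1 read 413, 697 and 485 on Et1 replicates 1, 2 and 3, against 853, 907 and 500 on control replicates 1, 2 and 3. The log2 fold change was -0.49 (SE 0.27), and it was -0.34 in the low and -0.16 in the high spike-in set. Probe set 1442849_at of Lrp1 read 58.4 to 68.7 in Et1 and 64.9 to 103 in control arrays, a log2 fold change of -0.38 (SE 0.24).

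Across the 20 probe sets above the filter the mean log2 signal was lower in Et1 for 18, as it was for 45.9% of all 22519 tested probe sets. The groups did not overlap, with Et1 lower, for 6 of the 20 (2 of Ptn, 2 of Ptprz1, 1 of Sdc4 and 1 of Sdc1), as for 8.11% of all, and 0 lay wholly above control, as 9.47% of all did. The median log2 fold change was -0.47, beside 0.03 over all tested probe sets, and 5 lay at or below -1, as 1.91% of all did. In the limma fit over all tested probe sets 1 of the 20, Ptn 1448254_at, passed an adjusted p of 0.05 on the lower side, as 0.249% of all did. Calls on either side made up 0.346% of all, 56 lower and 22 higher, or 37 lower and 7 higher with arrays centred on the median. The count among the 20 was 0 without Et1 replicates 1, 2 or 3 or without control replicates 1 or 2, and 2 without control replicate 3. Because the genes were chosen on this contrast, nothing is read from these counts.

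**Figure D3:**
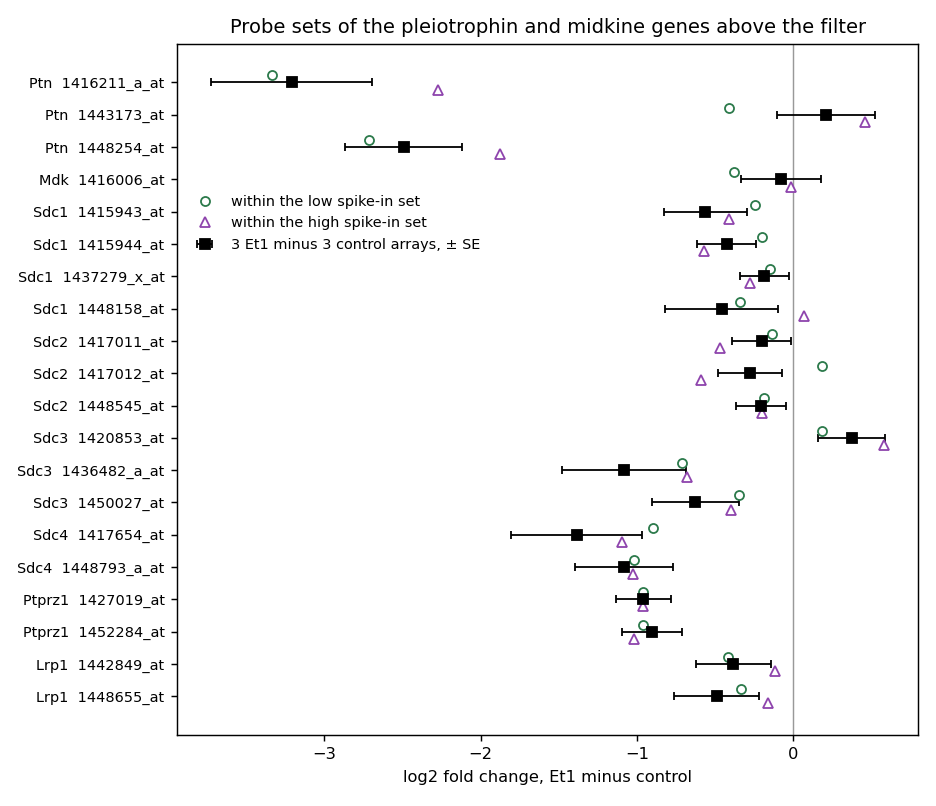
Log2 fold change, Et1 minus control, of the 20 probe sets above the filter (black squares with the standard error from limma, 3 arrays per group), beside the same difference within the low (green circles) and high (purple triangles) spike-in set. Values run from -3.21 for Ptn 1416211_a_at to 0.37 for Sdc3 1420853_at, and the 3 symbols of Ptprz1 nearly coincide.

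The probe sets differed in how their signals ran with the spike-in sets. In 7 of the 20 probe sets, beside 8.40% of all, the mean of the high set was at most 0.7 of that of the low set within both the Et1 and the control arrays. These were Ptn 1416211_a_at, Sdc1 1415943_at and 1448158_at, Sdc3 1436482_a_at and 1450027_at, Sdc4 1417654_at and Lrp1 1448655_at. In Sdc3 1436482_a_at the ratio was 0.452 in Et1 and 0.444 in control arrays, and in Lrp1 1448655_at it was 0.644 and 0.568. In Ptprz1 1427019_at it was 1.01 and 1.00, and in Sdc4 1448793_a_at 0.960 and 0.877. Across the 20 probe sets the median log2 fold change was -0.36 within the low and -0.44 within the high set, beside 0.01 and 0.04 over all tested probe sets, and 16 were lower in Et1 within both sets, as 29.2% of all were. As the sets were not balanced between the groups, the main log2 fold changes also carry part of this split. With a block for the sets they were -0.13 for Sdc1 1448158_at, -0.25 for Lrp1 1448655_at and -0.70 for Sdc3 1436482_a_at. For Ptn they were -2.80 in 1416211_a_at and -2.29 in 1448254_at. Others moved the other way, to -0.20 for Mdk 1416006_at and -0.30 for Sdc2 1417011_at, and Ptprz1 1427019_at stayed at -0.96. The limit of 0.7 was set after the values were seen, and what the sets stand for was not tested.

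The genes whose log2 signals were most like Ptn over the 6 arrays were named by Pearson correlation, as a description. Arrays of 2 groups give high values to any probe set that separates them. With 6 arrays, the best of 22519 tested probe sets can also reach high values for a pattern that does not, as for 1443173_at. For 1448254_at they were Limk1, a kinase of actin turnover, Tspan31, Cemip, which acts in hyaluronan breakdown, Ggcx, the vitamin K-dependent carboxylase, and Vdr, the vitamin D receptor, with r from 0.996 to 0.999. Cemip averaged 84.8 in Et1 and 276 in control arrays, and Vdr 61.8 and 177. For 1416211_a_at they were Hdlbp, Prrc1, Ggcx, Cdc42ep2 and Scd2, a fatty acid desaturase, with r from 0.994 to 0.997, and Ggcx was in both sets. For 1443173_at they were Gpalpp1, Ccdc47, Supv3l1, Scx, a tendon transcription factor, and Pnmt, with r from 0.988 to 0.998 and log2 fold changes from 0.07 to 0.36.

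The other genes of the pathway were taken from 8 lists of binding partners, proteoglycans and the enzymes that make their sugar chains. Of 105 tested genes 1 fell and 1 rose in limma over all probe sets, beside 0.36% and 0.154% of 11666 genes, or 0.514% on either side. When the fit blocked on the spike-in sets, 10 fell and 2 rose. Calls over all 22519 tested probe sets then rose from 78 to 868, 556 lower and 312 higher, so the percentages above do not apply to this fit. Among the 10 that fell were Chst12 (limma adjusted p = 0.00308), Tgfbr3 (0.0141), Itgb3 (0.0277), Mmp2 (0.0382) and Mmp14 (0.0461). Gpc6 and Nrp1 also fell in this fit. All of these genes are given below as not passing without the block. At an unadjusted p under 0.05 in any probe set 22 were lower and 7 higher, 27.6% in all, beside 1000 lower and 1035 higher of all genes, 17.4% in all. In the brightest probe set 66 were lower and 39 higher, with a median log2 fold change of -0.10, beside 5171 lower and 6495 higher and a median of 0.05 over all genes. List medians below are likewise over brightest probe sets, while a named gene is given in its probe set with the smallest p, which can be a dimmer one.

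The gene that fell was Papss2, which makes the sulfate donor that every sulfated sugar chain needs. It read 101, 119 and 79.1 on Et1 replicates 1, 2 and 3, against 300, 238 and 215 on control replicates 1, 2 and 3 in probe set 1434510_at, without overlap. Its log2 fold change was -1.34 (SE 0.21, limma adjusted p = 0.0485), and its other tested probe sets stood at -0.98 and -1.36. The gene that rose was Vldlr, a receptor of the same family as Lrp1, at 764, 694 and 858 on Et1 replicates 1, 2 and 3, against 285, 368 and 350 on control replicates 1, 2 and 3 in probe set 1434465_x_at. Its log2 fold change was 1.21 (SE 0.16, limma adjusted p = 0.0307), and 4 other probe sets were higher in Et1 without passing, at 0.61 to 0.91. Neither passed without Et1 replicates 1 or 3 or control replicates 1 or 2, where the log2 fold changes ran from -1.37 to -1.18 for Papss2 and from 1.10 to 1.28 for Vldlr. Without Et1 replicate 2 Vldlr alone passed, and without control replicate 3 both did, as did Chst12. Both calls were also lost with arrays centred on the median (limma adjusted p = 0.0594 for each) and without the intensity trend of limma, and that of Papss2 with no filter (limma adjusted p = 0.0816).

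Among 18 other receptors and partners of the 2 growth factors 0 passed in limma, 6 being lower and 0 higher at an unadjusted p under 0.05, with a median log2 fold change of -0.09. Itgb3, the integrin beta chain that pairs with alpha V to bind pleiotrophin, stood at -1.56 (limma adjusted p = 0.091), with signals of 42.1, 21.998 and 30.01 on Et1 replicates 1, 2 and 3, against 95.8, 94.5 and 78.3 on control replicates 1, 2 and 3. It passed the filter through its control signals, and with 50 added it was -0.78. Nrp1, a co-receptor of semaphorins and vascular growth factor, stood at -0.72 and Thbs1, the matrix protein thrombospondin-1, at -0.74 (limma adjusted p = 0.173 and 0.201). Other probe sets stood at -0.99, -0.46 and -0.35 for Nrp1 and at -0.34 for Thbs1.

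Among 9 glypicans and other heparan sulfate proteoglycans 0 passed in limma, 3 were lower and 0 higher at an unadjusted p under 0.05, and the median was -0.35. Gpc6, a glypican, stood at -0.80, Tgfbr3, the TGF-beta co-receptor betaglycan, at -0.99 and Gpc4 at -0.80. The other probe set of Tgfbr3 stood at -0.77 and the brighter one of Gpc4 at -0.35. Gpc6 had 4 probe sets, from -1.25 to -0.55, and in each its 3 Et1 signals lay below its 3 control signals. Among 6 chondroitin sulfate proteoglycans 0 passed, with 1 lower and 0 higher at an unadjusted p under 0.05 and a median of -0.19. Vcan, the large matrix proteoglycan versican, stood at -0.99 in 1427257_at and at -0.46 and -0.40 in its other probe sets. Dcn, the small matrix proteoglycan decorin, stood at -0.26. Cspg4, a membrane proteoglycan of pericytes, stood at -0.37 and at -0.27 in its brighter probe set.

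Among 23 genes of heparan sulfate synthesis and remodelling Papss2 fell, 0 rose, and the median was -0.07. At an unadjusted p under 0.05 in this list 3 were lower, Papss2 included, and 2 higher. Among 12 genes of chondroitin and dermatan sulfate synthesis 0 passed, 4 being lower and 0 higher at an unadjusted p under 0.05, with a median of -0.21. Chst12, a sulfotransferase of chondroitin, read 190, 291 and 187 on Et1 replicates 1, 2 and 3, against 511, 555 and 385 on control replicates 1, 2 and 3, which is -1.13 on the log2 scale (limma adjusted p = 0.0897). Dse, the epimerase that turns chondroitin into dermatan sulfate, stood at -0.56. Chst11, another chondroitin sulfotransferase, stood at -0.64 in its dimmer probe set and at -0.00 in the brighter one.

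Among 15 cytoplasmic partners and sheddases of syndecans 0 passed, with 4 lower and 2 higher at an unadjusted p under 0.05 and a median of -0.12. Mmp14, a membrane protease, stood at -0.70, Mmp2, a gelatinase, at -0.70 and Mmp9, another gelatinase, at 0.40. Other probe sets stood at -0.62 and -0.90 for Mmp14 and at 0.31 for Mmp9. The brighter probe set of Mmp2 stood at -0.22, with overlapping groups. Among 10 genes of the LDL receptor family and its chaperones Vldlr rose and 0 fell, with a median of -0.00. At an unadjusted p under 0.05 in this list 1 was lower and 2 were higher, Vldlr included. Among 12 other receptor phosphatases and contactin partners 0 passed, with 0 lower and 1 higher at an unadjusted p under 0.05 and a median of 0.20. In this list Nrcam, a neural adhesion molecule, stood at 1.16 (limma adjusted p = 0.131) in 1434709_at. Its control signals all lay under the filter value, and with 50 added it was 0.56. The other Nrcam probe set stood at 0.53, with overlapping groups. Cntn1 stood at 0.45. Ptprf, a receptor phosphatase, differed in sign between its probe sets, at -0.78, -0.40 and, in the brightest, 0.18.

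**Figure D4:**
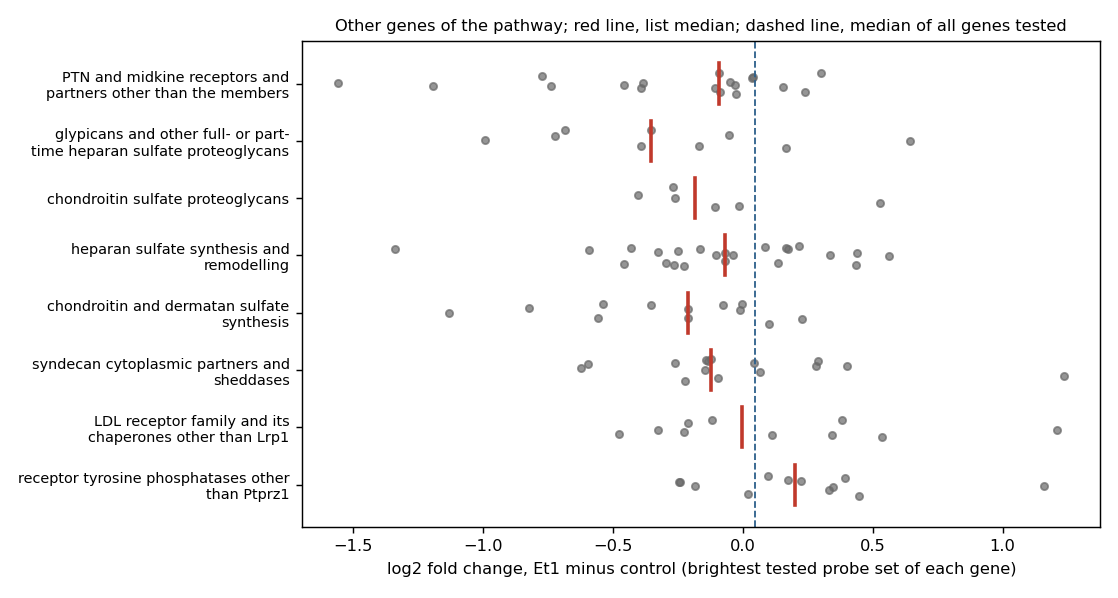
Log2 fold change, Et1 minus control, of the brightest tested probe set of each of 105 other genes of the pathway (points), by list; the red line is the list's median and the dashed line the median of all 11666 genes tested, 0.05. Medians run from -0.35 for glypicans and related proteoglycans to 0.20 for the list of receptor phosphatases and contactin partners.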

How the data were processed

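The deposited values are intensities on a linear scale, 1 per probe set, which the authors obtained with MAS5 (named in the submitters' processing notes, with no version or target scale). Their 2% trimmed means ran from 91.7 to 179, and arrays were multiplied to a common 139, the geometric mean of the 6. The 4 zeros took the lowest positive value on the same array before log2, with no pseudocount. Leaving out 64 Affymetrix controls gave 45037 probe sets, of which 34945 had 1 gene symbol in the platform annotation, 932 several and 9160 none. Limma 3.58.1 in R 4.3.3 (lmFit, eBayes with an intensity trend, no block) was fitted to the 22519 above the filter, with Benjamini-Hochberg adjustment and a threshold of 0.05, and was tested on simulated data. With 3 arrays a group precision is limited. The p-values set each difference against the spread between these arrays, which limma moderates over all tested probe sets. That spread includes the split between the spike-in sets.

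The members, lists and spike-in split were chosen with earlier results of these data known. Every member probe set was named. Of each pathway list the genes with a call (at most 6) were named, or otherwise the 3 with the smallest p, and for each Ptn probe set the 5 most correlated genes, skipping clone names. Marker genes were named after their values were seen. The fit was repeated with quantile normalization, median centring, all probe sets, only those above the 75th percentile, a pseudocount of 50, a constant prior variance, cross-hybridising probe set types (_x_at, _s_at) removed, 1 array left out at a time, and a block for replicate number or spike-in set. Genes with no single-symbol probe set were not analysed here.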

Additional observations from a re-analysis of the deposited data

How the results depend on the processing

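Probe sets called over the whole table by limma numbered 78, against 44 with centring on the median (37 lower and 7 higher), 40 with no filter, 7 without the intensity trend, 567 with the replicate block and 868 with a spike-in block, and 4 to 229 with 1 array left out. Among the 20 tested probe sets of the 8 genes 1 passed. The count was 2 with quantile normalization, beside 85 over the whole table, and 2 with centring, beside 44. It was 2 of 15 with the 75th percentile filter, beside 113 of 11260, and 0 with no filter and with no trend. With the replicate block it was 4, beside 567, and with a spike-in block 6, beside 868. With 1 array left out it was 0 to 2, beside 4 to 229. Calls also rose over the whole table with both blocks, and nothing is read from these member counts. The spike-in block added probe sets of Ptn, Sdc3, Sdc4 and Ptprz1, and the replicate block added 1 of Ptn and 2 of Ptprz1. Of the pathway genes 2 passed, against 0 with centring and with no trend, 1 with no filter (Papss2 lost) and without _x_at and _s_at probe sets (which leaves out that of Vldlr), 10 with the replicate block, 12 with a spike-in block, and 0 to 3 with 1 array left out. The cause of these changes was not tested. Probe sets of the 8 genes with lower means numbered 17 to 19 with 1 array left out. Of 294 log2 fold changes of these genes recomputed under the other settings, 291 moved by less than the SD between replicates, and 3 changed sign, 2 of Mdk and 1 of Ptn 1443173_at. The 3 that moved further were Ptn 1416211_a_at and both Ptprz1 probe sets with 50 added. The 3 that changed sign were 0.10 and 0.09 for Mdk, without Et1 replicate 2 and without control replicate 1, and -0.00 for Ptn 1443173_at without Et1 replicate 1. Each group holds arrays of both spike-in sets, so the SD between replicates includes that split and is a wide limit. Over the settings Sdc1 1448158_at ran from -0.85 to -0.13 and Sdc3 1436482_a_at from -1.47 to -0.70. The range was narrower for others, such as -0.28 to -0.10 for Sdc1 1437279_x_at. The deposited signals carry no detection calls, so no background level could be set for dim probe sets.

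The series text says that cells were split into treated and control cultures but not that the replicate numbers mark the split. Same-numbered Et1 and control arrays had correlations of their deviations from the group means of -0.12, 0.44 and 0.45 for numbers 1, 2 and 3. Not every array correlated best with its own number. Number 1 joined a high-set Et1 array with a low-set control array, while numbers 2 and 3 each joined arrays of the same spike-in set. The check therefore could not separate pairing from the spike-in sets, and whether the numbers mark pairs stays unknown. The main fit did not take them as pairs, because the series text does not give them as such, and the replicate block is given only here.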
